A study of Mus musculus with 8 samples.

Results

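The 7 genes described here, Hif1a, Epas1, Arnt, Vhl, Egln1, Egln3 and Vegfa, encode regulators of the hypoxia-inducible factor (HIF) pathway and one of its best known products, and were taken by symbol from a table of 21080 gene symbols. All 7 were measured in all 8 samples and all 7 passed the filter on low values in every comparison. After 4 h of stimulation, Vhl was 2.12-fold higher in Nudt21-deficient than in WT macrophages relative to the median gene (adjusted p = 0.0636 in limma). On that scale it was the one member called between the genotypes at that time, by a rule on the unadjusted p. There 10.4% of all genes tested were called higher and 9.9% lower. On the values as deposited Arnt and Egln1 were called higher as well, where 20.8% of all genes were called higher and 4.17% lower. At 0 h none of the 7 was called, where 7.25% of all genes were called higher and 6.98% lower. In both genotypes Hif1a rose and Epas1 and Vegfa fell with stimulation. The fall of Vegfa in WT had an unadjusted p of 0.0497 and an adjusted p of 0.0849 in limma, and its call was lost when any 1 WT sample was left out. Arnt and Epas1 each lay higher in every Nudt21-deficient sample than in every WT sample at both times, by less than the 1.5-fold threshold relative to the median gene.

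HIFs are transcription factors made of an oxygen-sensitive α subunit, HIF-1α from Hif1a or HIF-2α from Epas1, and the stable β subunit ARNT. When oxygen is present, the prolyl hydroxylases of the EGLN family modify the α subunit, the ubiquitin ligase subunit VHL binds the modified protein, and it is degraded. When hydroxylation fails, the complex binds hypoxia response elements and raises glycolytic genes, the growth factor gene Vegfa and, as feedback, Egln3. In macrophages HIF-1α is also known for its part in the inflammatory response to LPS, the bacterial cell wall component, where the Hif1a mRNA itself is induced. Only mRNA was measured here, and the oxygen-dependent step acts on the protein.

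The RNA came from cultured macrophages derived from bone marrow (BMDMs), in 4 groups of 2 samples, with the cells of 2 mice pooled in each sample. The WT mice carried LysM-Cre, a Cre recombinase expressed in myeloid cells, and the Nudt21-cKO mice were Nudt21 fl/fl with LysM-Cre, so that both genotypes carried the Cre and the cKO lost Nudt21 in myeloid cells only. Both were on a C57BL/6 background, and WT mice were sex-matched littermates. Each genotype was sampled without stimulation (0 h) and after overnight IFNγ followed by LPS for 4 h. The labels list the stimulation for the 0 h samples as well, which were taken as unstimulated from their titles. Nudt21 is the RNA-binding subunit of a 3′ end processing complex that recognises UGUA in pre-mRNA and helps choose the polyadenylation site.

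The deposited values are read depths per base, averaged over a gene, which allows levels to be compared between genes, and they were not scaled between samples by the authors. Summed over genes, coverage ran from 14950347 to 15827594 in WT and from 16650103 to 17954882 in cKO samples. Nudt21 had a coverage of 718 and 641 in WT against 158 and 172 in cKO at 0 h, and of 547 and 575 against 142 and 115 at 4 h. The genotype labels thus held in all 8 samples, and the time labels are not checked by this gene. Of the 6 macrophage markers examined, 6 were above the filter in each group. In cKO at 0 h Adgre1, Csf1r and Fcgr1 were called lower (-0.75, -0.65 and -0.99 relative to the median gene) and Cd68 higher (0.60), the call of Csf1r being lost as deposited. At 4 h Adgre1 (-0.80), Fcgr1 (-0.63) and the neutrophil gene Mpo (-0.71) were called lower and Cd68 higher (0.73), and as deposited Cd68 alone of these was called. The neutrophil genes S100a8, Elane and Mpo also had coverage, from 4761 to 9570, from 90.2 to 446 and from 76.4 to 294, whereas the T cell genes Cd3e and Cd3d reached at most 1.02 and 2.73. The part of these differences in the values below was not tested. Because the deposited values were not scaled between samples, fold changes are given relative to the median gene of each sample, with the value on the deposited scale beside them. On the deposited scale the median log2 fold change over all genes tested was 0.10 for cKO against WT at 0 h and 0.31 at 4 h, and -1.27 in WT and -1.05 in cKO for 4 h against 0 h. A gene was called different at a fold change above 1.5 with an unadjusted p under 0.05 in limma, and p-values adjusted over all genes tested by the Benjamini-Hochberg method are given beside the calls.

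The UGUA closest to the annotated 3′ end of each of 4 members is shown because it is the motif that the deleted factor binds. The bases are from the GENCODE M21 transcripts on GRCm38, written 5′ to 3′ as RNA, with the motif in capitals.
Vhl: ugggacauccUGUAaugaguuccu
Egln1: auuaaaaagaUGUAuaaauguucu
Arnt: aauaaugacaUGUAgcaaagauuu
Hif1a: ccauuauaaaUGUAugagucuauu
The Vhl window lies in the 3′UTR at chr6:113631537-113631560 on the plus strand, 87 bases before the annotated end. That of Egln1 lies at chr8:124908598-124908621 on the minus strand, 25 bases before the end. For Arnt it lies at chr3:95497189-95497212 on the plus strand, 42 bases before the end. In Hif1a, at chr12:73947110-73947133 on the plus strand, the last UGUA is 411 bases before the end, and Hif1a was the one member with none in its last 100 bases. Among 12736 tested genes with an annotated coding 3′UTR, 53.8% held a UGUA in that window, against 6 of the 7 members. The 3′UTR of Vhl, 2064 bases in its last exon, held 21 UGUA motifs or 10.2 per kb, more per kb than 90.2% of those genes. Egln1 followed with 18 motifs or 8.49 per kb and Hif1a with 12 or 6.57 per kb, beside a median over genes of 5.09 per kb. Arnt had the lowest density of the 7, with 5 motifs or 2.71 per kb. All 7 members had a 3′UTR longer than the median of 1013 bases. These are counts of a short motif in annotated transcripts, and coverage averaged over a gene does not show which 3′ end was used.

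Hypoxia response elements contain ACGTG or GCGTG. In RefSeq promoters on GRCm38.p6 (250 bases before to 50 after the start), searched on both strands, 43.8% of 32851 entries held either motif and 19.6% held ACGTG. The 6 members matched had 7 entries, of which 5 held either motif and 4 held ACGTG. Vegfa had 2 entries, and one of them held none. A match in each hydroxylase gene is shown, since EGLN genes are known HIF targets, with the motif in capitals on the strand of the gene.
Egln1: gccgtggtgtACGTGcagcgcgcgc
Egln3: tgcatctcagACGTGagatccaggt
The Egln1 match lies at chr8:124949308-124949332 and the Egln3 match at chr12:54204089-54204113, both on the minus strand. Hif1a held 3 matches of ACGTG, a pair of them being opposite strands of overlapping letters. The Vhl entry held none, which says only that these letters are not in that window.

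The α subunits moved in opposite directions with stimulation. Hif1a had a coverage of 1593 and 1643 in WT at 0 h, beside 1449 and 1643 in the cKO samples. At 4 h its level was 7123 and 7761 in WT, and 6873 and 6684 in cKO samples. It was the most abundant member in all 4 groups, above 92.6% of all symbols in WT at 0 h and above 98.3% at 4 h. Hif1a rose by 3.65 on the log2 scale in WT relative to the median gene (SE 0.14, adjusted p = 0.00269) and by 3.34 in cKO (SE 0.07, adjusted p = 0.000969). As deposited the rises were 2.2005 and 2.1353, and Hif1a was called in each under all 14 alternatives tried. A part of the Hif1a transcript, 330 exonic bases, is shared with an antisense gene, Gm15283, and the library kit did not keep the strand, so reads there cannot be assigned to either gene. Another 148 exonic bases are shared with Gm49321, a protein-coding gene on the same strand that is not in the tables analysed.

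Epas1 had a coverage of 135 and 157 in WT beside 222 and 182 in cKO at 0 h, and at 4 h of 7.42 and 7.81 in WT beside 10.9 and 11.9 in cKO. The cKO samples lay above the WT samples at each time and every 4 h sample lay far below every 0 h sample. Epas1 fell by 2.78 on the log2 scale in WT (SE 0.17, adjusted p = 0.00422) and by 2.92 in cKO (SE 0.18, adjusted p = 0.00338) relative to the median gene, and its change was -4.24 and -4.13 on the deposited scale. Within a sample, the ratio of Hif1a to Epas1 is not changed by a factor common to all genes of that sample. It was 11.8 and 10.5 in WT beside 6.53 and 9.01 in cKO at 0 h, and 960 and 994 in WT beside 628 and 562 in cKO at 4 h. Epas1 is also known from endothelial cells, and the summed coverage of the 3 endothelial markers examined was between 386 and 597 at 0 h and between 74.0 and 154 at 4 h. Most of that sum was Vwf. Tie1 was between 2.997 and 4.61 at 0 h and between 0.106 and 1.67 at 4 h, and Cdh5 between 3.54 and 13.1 at 0 h and between 9.24 and 21.1 at 4 h. The part of other cells in the Epas1 values was not tested, and in bulk RNA fewer cells of a type and less RNA per cell cannot be told apart.

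**Figure D1:**
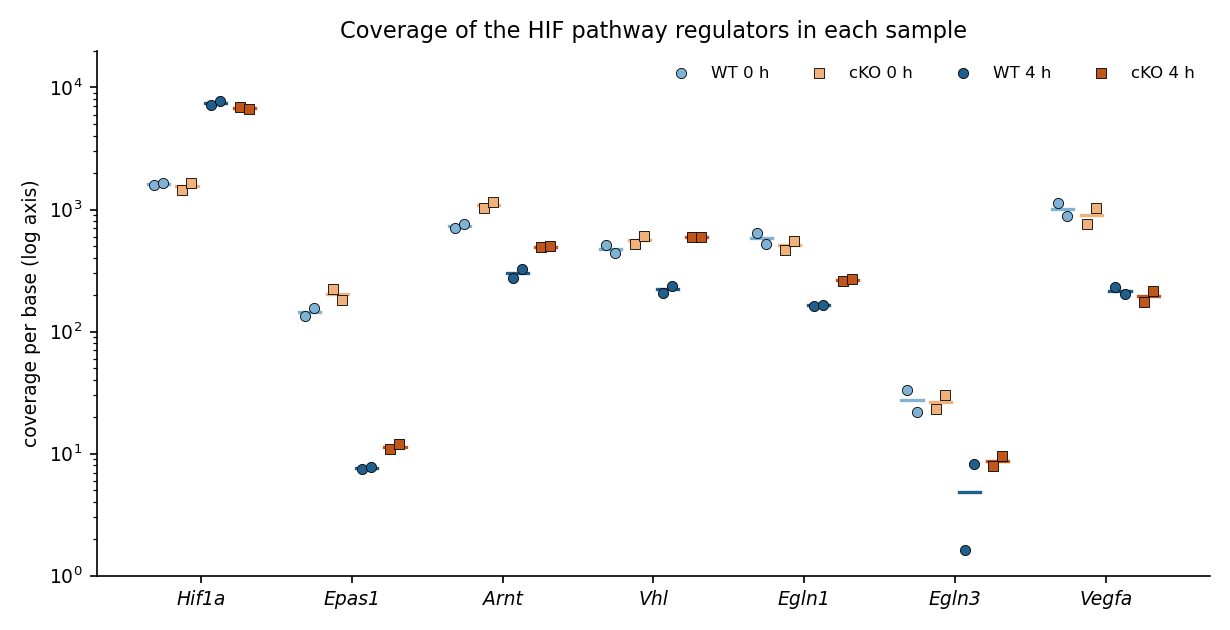
Coverage per base of the 7 genes (log axis) in each sample, with circles for WT and squares for cKO, light colours for 0 h and dark for 4 h, and a line at the mean of the 2 samples. Hif1a rose and Epas1 fell in both genotypes, and the cKO 4 h samples of Vhl lie at 590 and 595 against 208 and 235 in WT.

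Between genotypes the α subunits gave no call. Hif1a differed by -0.16 at 0 h (SE 0.09, adjusted p = 0.399) and by -0.47 at 4 h (SE 0.11, unadjusted p = 0.0212 and adjusted p = 0.124 from limma), with both cKO samples below both WT samples at 4 h. Relative to the median gene the cKO samples of Hif1a also lay below at 0 h, where the genotypes overlapped as deposited. The 4 h difference shrank to -0.13 on the deposited scale, and its sign was the same in all 13 alternatives. Epas1 differed by 0.38 at 0 h (SE 0.20, adjusted p = 0.379) and by 0.24 at 4 h (SE 0.13, adjusted p = 0.321). The 0 h value was 0.18 without cKO sample 3 and 0.57 without cKO sample 4. The deposited values gave 0.47 and 0.58.

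The shared β subunit, Arnt, had a coverage of 712 and 754 in WT beside 1021 and 1160 in cKO at 0 h. At 4 h it was 276 and 328 in WT beside 491 and 504 in cKO. The cKO samples thus lay above the WT samples at both times without overlap. The genotype difference was 0.48 at 0 h (SE 0.10, adjusted p = 0.141) and 0.39 at 4 h (SE 0.10, adjusted p = 0.138), which is under the 1.5-fold threshold, and on the deposited scale it was 0.57 and, at 4 h, 0.72 with a call. The ratio of Hif1a to Arnt within a sample was 2.24 and 2.18 in WT against 1.42 in both cKO samples at 0 h, and 25.8 and 23.7 against 14.01 and 13.27 at 4 h. Groups of 2 samples cannot reach an exact two-sided permutation p below 0.333 for such a ratio. The change of Arnt with stimulation was 0.17 in WT and 0.07 in cKO relative to the median gene and turned to -1.28 and -1.13 on the deposited scale, where Arnt was called lower in both genotypes.

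Vhl, the subunit that recognises hydroxylated HIF-α, was the member that differed most clearly between the genotypes. Its coverage was 515 and 440 in WT beside 523 and 611 in cKO at 0 h. After 4 h it was 208 and 235 in WT, whereas the cKO samples were at 590 and 595. That is close to their level without stimulation on the deposited scale only, as Vhl rose in cKO relative to the median gene. Vhl lies at chr6:113623959-113631633 and shares no exonic base with another annotated gene. The log2 difference between genotypes was 0.16 at 0 h (SE 0.13, adjusted p = 0.531) and 1.09 at 4 h (SE 0.10, unadjusted p = 0.00151 and adjusted p = 0.0636 from limma), and at 4 h it was 1.42 on the deposited scale (adjusted p = 0.0467). The 0 h difference was 0.26 without WT sample 1 and 0.05 without WT sample 2. The 4 h difference remained between 1.06 and 1.12 when any 1 sample was left out, and its adjusted p ran from 0.00379 to 0.378 over the alternatives. The test of the difference between times gave 0.91 (SE 0.16, unadjusted p = 0.00216 and adjusted p = 0.0656 from limma).

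The direction in which Vhl moved with stimulation depended on the scale. In WT it was 0.35 relative to the median gene and -1.11 on the deposited scale, where it was called lower. In cKO it was 1.27 relative to the median gene, with a call (adjusted p = 0.00368), and 0.07 on the deposited scale. The contrast between the genotypes did not depend on the scale in this way. The ratio of Hif1a to Vhl was 3.09 and 3.73 in WT beside 2.77 and 2.69 in cKO at 0 h. At 4 h it was 34.2 and 33.1 in WT beside 11.6 and 11.2 in cKO, so Hif1a exceeded Vhl by a far smaller factor in cKO samples.

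**Figure D2:**
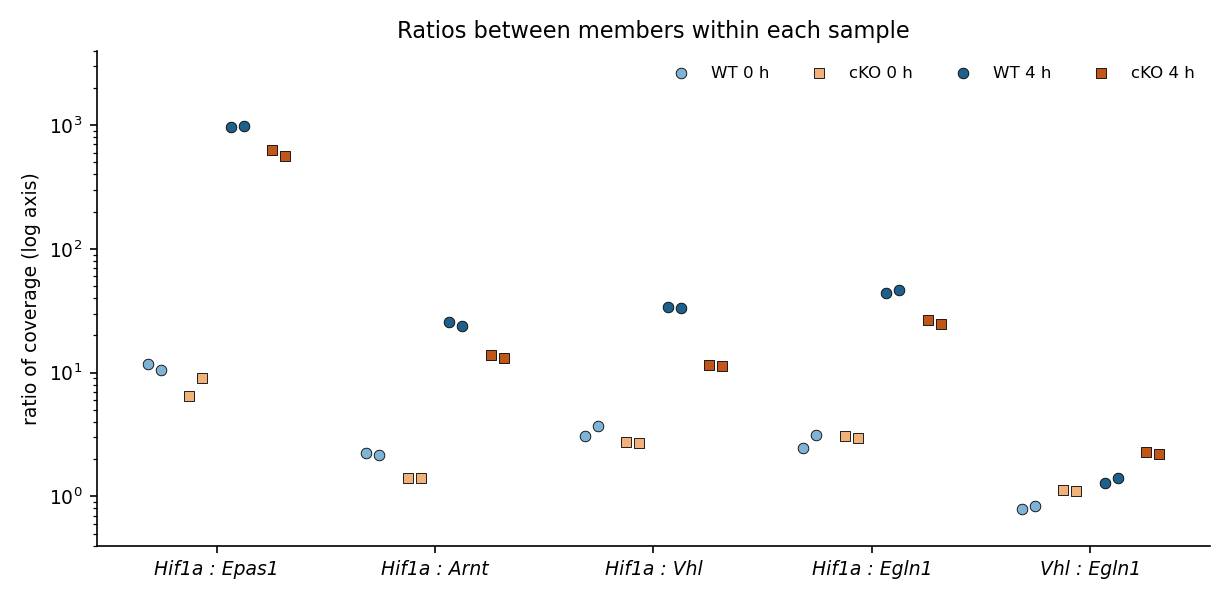
Ratio of coverage between members within each sample (log axis), with circles for WT and squares for cKO, light colours for 0 h and dark for 4 h. The ratio of Hif1a to Vhl at 4 h lies at 34.2 and 33.1 in WT and at 11.6 and 11.2 in cKO, and the WT and cKO samples of the ratio of Hif1a to Egln1 overlap at 0 h only.

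Egln1, the main HIF prolyl hydroxylase in most tissues, had a coverage of 646 and 524 in WT beside 467 and 550 in cKO at 0 h. At 4 h it was 161 and 167 in WT beside 259 and 272 in cKO. As deposited the groups overlapped at 0 h, where the cKO samples lay below the WT samples relative to the median gene, and at 4 h the cKO samples lay above on both scales. The genotype difference was -0.29 at 0 h (SE 0.15, adjusted p = 0.371) and 0.36 at 4 h (SE 0.13, adjusted p = 0.197), and on the deposited scale -0.20 and, with a call, 0.70. The 0 h value was -0.15 without WT sample 1 and -0.43 without WT sample 2. The difference between times was 0.63 (SE 0.20, unadjusted p = 0.0261 and adjusted p = 0.172 from limma) and was called. That call was lost, at 0.49 to 0.58, when WT sample 1 or cKO sample 3 of 0 h or WT sample 2 or cKO sample 4 of 4 h was left out. With stimulation Egln1 changed by -0.38 in WT and by 0.27 in cKO relative to the median gene. The deposited values were -1.83 in WT and -0.93 in cKO, both with a call. Within a sample, the ratio of Vhl to Egln1 was 0.798 and 0.840 in WT beside 1.12 and 1.11 in cKO at 0 h, and 1.29 and 1.41 in WT beside 2.28 and 2.19 in cKO at 4 h.

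Egln3, the hydroxylase that HIF itself induces, was the least abundant member in every group. Its coverage was 33.0 and 22.1 in WT beside 23.4 and 30.0 in cKO at 0 h. At 4 h it was 1.61 and 8.15 in WT beside 7.87 and 9.61 in cKO, so the WT samples were further apart than the genotypes. Its genotype difference at 4 h was 0.89 (SE 0.83, adjusted p = 0.525) and turned to -0.13 without WT sample 1, whereas without WT sample 2 it was 1.91. Egln3 changed with stimulation by -1.40 in WT (SE 0.84, adjusted p = 0.253) and by -0.39 in cKO (SE 0.18, adjusted p = 0.165), and neither was called. As deposited the values were -2.85 and -1.596, the latter with a call. Without WT sample 1 of 4 h the WT value was -0.38, and without WT sample 2 of 4 h it was -2.41.

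Vegfa, the secreted factor that drives vessel growth, had a coverage of 1125 and 892 in WT beside 759 and 1029 in cKO at 0 h, and of 231 and 202 in WT beside 174 and 214 in cKO at 4 h. As deposited the genotypes overlapped at both times, and relative to the median gene the cKO samples lay below the WT samples at 4 h. Vegfa fell with stimulation by 0.76 on the log2 scale in WT (SE 0.25, adjusted p = 0.0849) and by 0.99 in cKO (SE 0.21, adjusted p = 0.0333) relative to the median gene, and by 2.21 and 2.19 on the deposited scale. The WT call, at an unadjusted p of 0.0497, was lost when any 1 of the 4 WT samples was left out, at values from -0.54 to -0.97. The cKO call was lost without cKO sample 4 of 0 h, at -0.84, or cKO sample 3 of 4 h, at -0.83. The genotype difference was -0.27 at 0 h (SE 0.20, adjusted p = 0.509) and -0.50 at 4 h (SE 0.23, adjusted p = 0.273), without a call. The deposited values were -0.18 and -0.16. The 0 h value was -0.11 without cKO sample 3 and -0.44 without cKO sample 4, and the 4 h value was -0.29 without WT sample 1 and -0.71 without WT sample 2.

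**Figure D3:**
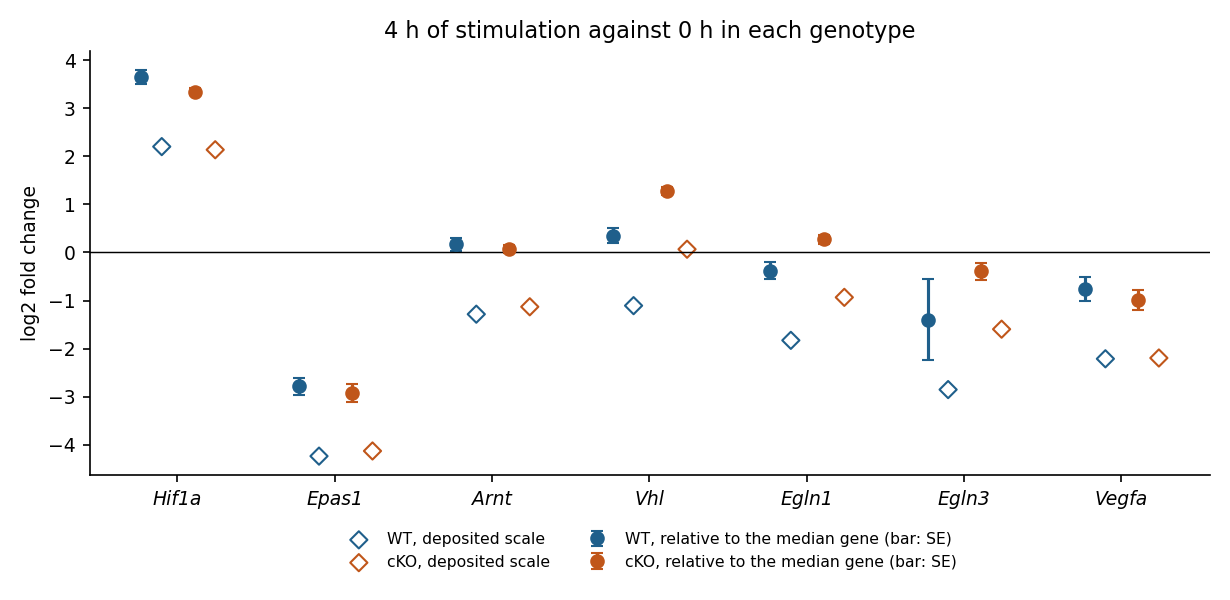
Log2 fold change of 4 h against 0 h for each gene in WT (blue) and cKO (orange), as filled circles with the standard error relative to the median gene and as open diamonds on the deposited scale. Hif1a lies above 0 and Epas1 and Vegfa below 0 on both scales, whereas Arnt in both genotypes, Vhl in WT and Egln1 in cKO change sign.

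Counted over the 7 members, the genotype comparison gave 0 calls at 0 h, where 7.25% of 16251 genes tested were called higher and 6.98% lower in cKO. An unadjusted p under 0.05 alone in limma was met by 1 member, Arnt. At 4 h it gave 1 higher, Vhl, beside 10.4% higher and 9.9% lower of 14950 genes. There the unadjusted p was under 0.05 in limma for 3 members, Hif1a, Arnt and Vhl. On the deposited scale 3 were higher at 4 h (Arnt, Vhl and Egln1) and none lower, where 20.8% of all genes tested were called higher and 4.17% lower. The difference between times gave 2 calls, both higher (Vhl and Egln1), beside 7.47% higher and 8.85% lower of 16284 genes. At an unadjusted p under 0.05 alone in limma there were 3, these and Hif1a. For the counts at p alone the share of all genes was not taken, and the shares given here are for fold and p together. With stimulation, 1 member was higher and 2 lower in WT beside 33.5% and 22.4% of 16002 genes, and 2 were higher and 2 lower in cKO beside 32.7% and 23.2% of 16223 genes. Without centring these became 1 higher and 5 lower in each genotype, beside 11.9% of all genes called higher and 55.1% lower in WT, and 13.7% and 53.2% in cKO. The median genotype difference of the 7 was -0.12 at 0 h and 0.36 at 4 h, beside 0.01 and -0.03 over all genes tested.

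**Figure D4:**
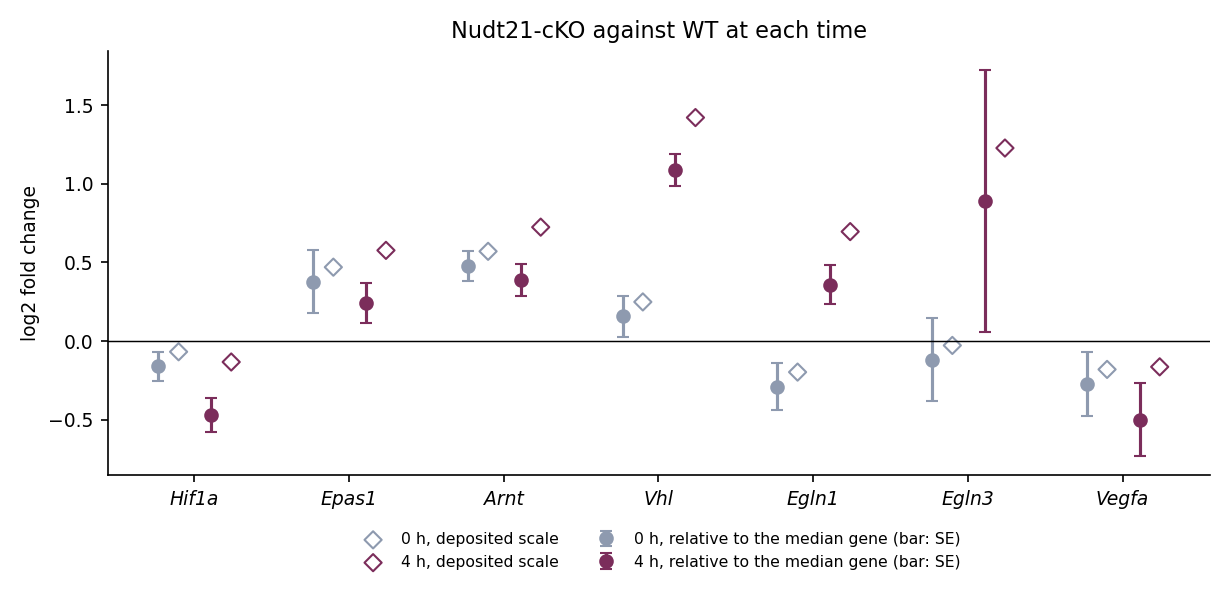
Log2 fold change of cKO against WT for each gene at 0 h (grey) and 4 h (purple), as filled circles with the standard error relative to the median gene and as open diamonds on the deposited scale. Vhl at 4 h stands highest, at 1.09 and 1.42, and the bar of Egln3 at 4 h is the widest.

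The order of levels also differed between the groups. In WT at 0 h it ran Hif1a, Vegfa, Arnt, Egln1, Vhl, Epas1 and Egln3, and no pair of neighbours overlapped in their samples. In cKO at 0 h Arnt stood second, overlapping with Vegfa, and Vhl and Egln1 overlapped. At 4 h the WT order was Hif1a, Arnt, Vhl, Vegfa, Egln1, Epas1 and Egln3, with overlap between Vhl and Vegfa and between Epas1 and Egln3. In cKO at 4 h Vhl was second, ahead of Arnt, Egln1 and Vegfa, with no overlap between neighbours.

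Of the 12024 genes whose coverage averaged 10 or more, those most like each member over the 8 samples were taken by the root mean square difference of their centred log2 values. For Vhl they were Rex1bd (0.14), Abhd13 (0.14) and Mydgf (0.15). For Hif1a they were Pdgfc (0.07), Hectd2 (0.07) and Lap3 (0.08), for Epas1 Snx30 (0.14), Amz1 (0.15) and Mlh3 (0.17), and for Arnt Tm9sf2 (0.05), Aldh3b1 (0.05) and Afdn (0.07). Egln1 was closest to Hexim1 (0.09), Sap30l (0.09) and Tle5 (0.10), Vegfa to Ccdc115 (0.11) and Rgs10 (0.14) among others, and Egln3, the least abundant, to Cbarp (0.26), Gen1 (0.28) and Pter (0.28). No member was among the nearest genes of another.

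The other genes of the pathway were examined as lists. The 13 other HIF regulators hold the remaining subunits of the VHL ligase, the asparaginyl hydroxylase Hif1an, coactivators and inhibitors. Of the 12 tested at 0 h and the 11 at 4 h, 0 were called between genotypes in limma, beside 7.25% of all genes higher and 6.98% lower at 0 h and 10.4% and 9.9% at 4 h. The medians were 0.07 and 0.28. At an unadjusted p under 0.05 alone in limma there were 2 at each time, Cited2 and Siah1a at 0 h and Hif1an and Cul2 at 4 h, named after their values were seen. The share of all genes at p alone was not taken. On the deposited scale 7 of 11 were called higher at 4 h, beside 20.8% of all genes tested. The extremes at 4 h were 0.83 for Siah2, a ubiquitin ligase for the EGLN proteins, and -0.43 for Cul2, the scaffold of the VHL ligase, neither of them called. As deposited these were 1.17, with a call, and -0.09. With stimulation, of the 11 that reached the filter in every group compared, 8 were higher in WT and 10 in cKO relative to the median gene, with none lower, beside 33.5% and 32.7% of all genes higher. Without centring it was 2 higher and 5 lower in WT, and 2 higher and 1 lower in cKO, beside 55.1% and 53.2% of all genes lower. The largest rise was that of Cited2, an inhibitor that competes for the coactivators of HIF, by 3.02 in WT and 4.03 in cKO, and by 1.57 and 2.82 on the deposited scale. In the test of the difference between times, 3 of 11 were called higher (Cited2, Siah1a and Siah2) and 1 lower, Cul2, beside 7.47% and 8.85% of all genes. As deposited the 3 were higher and 0 lower, beside 13.5% and 4.05%. Siah2, with the largest such value at 1.14 (SE 0.36, adjusted p = 0.166), had a coverage of 203 and 173 in WT against 162 and 154 in cKO at 0 h, and of 397 and 292 against 713 and 818 at 4 h. Siah1a and Cul2 were named after their values were seen.

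All 24 hypoxia targets were tested between the genotypes. At 0 h Adm passed the filter on low values only through the cKO samples and is left out of the counts. The median of the other 23 was -0.07, in a range from -0.81 to 0.9998. In cKO 2 of them were higher, Higd1a among them, and 2 lower, the glucose transporter gene Slc2a1 and the hexokinase gene Hk2, beside 7.25% and 6.98% of all genes. As deposited 3 were higher and 1 lower, beside 8.99% and 5.61%. Slc2a1 had a coverage of 803 and 832 in WT beside 500.3 and 549 in cKO, a difference of -0.73 (SE 0.09, adjusted p = 0.0936). Adm, which encodes adrenomedullin, was listed at 0.283 and 0 in WT against 2.69 and 10.4 in cKO, so no fold is given. At 4 h the 24 ran from -0.69 to 1.01 with a median of -0.14. Beside 10.4% of all genes higher and 9.9% lower, 2 of these were higher, Hmox1 among them, and 1 lower, Ndrg1 at -0.69 (SE 0.18, adjusted p = 0.137), and on the deposited scale 7 were higher and none lower, beside 20.8% and 4.17% of all genes. These genes, apart from those with the largest rise or fall, were named after their values were seen. With stimulation 15 of 23 were higher and 3 lower in WT, and 14 and 3 of 24 in cKO, with medians of 0.93 and 1.30 relative to the median gene, beside 0.18 and 0.15 over all genes tested. Over all genes 33.5% were higher and 22.4% lower in WT, and 32.7% and 23.2% in cKO. As deposited, 7 were higher and 11 lower in WT, beside 11.9% and 55.1% of all genes, and 8 and 10 in cKO, beside 13.7% and 53.2%. Hmox1, heme oxygenase, had the largest fall in WT, from 11031 and 9502 to 868 and 846.

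Of the 9 VEGF ligands and receptors, 6 reached the filter in both genotypes at 0 h and 8 at 4 h, with medians of 0.58 and 0.84. At 0 h 2 were called higher in cKO (Kdr and Nrp2) and at 4 h 6 (Flt1, Kdr, Nrp1, Nrp2, Vegfb and Vegfc), with none lower, relative to the median gene, and as deposited 3 and 6 were higher with none lower. The shares called higher over all genes were 7.25% (0 h) and 10.4% (4 h) with centring, and 8.99% and 20.8% as deposited. Pgf, a placental VEGF relative, passed the filter at 0 h only through the cKO samples, being at or near 0 in both WT samples against 1.51 and 1.602 in cKO, so it is not counted and no fold is given. Flt4, the receptor for VEGF-C, passed at 0 h only through the WT samples, at 0.740 and 0.923 against 0.341 and 0 in cKO, and is not counted either. Vegfc, a lymphatic growth factor, had the largest difference at 4 h, 1.93, with a coverage of 2.62 and 4.12 in WT against 12.3 and 21.4 in cKO. Kdr, the main receptor for VEGF-A on endothelium, had a coverage of 18.3 and 23.9 in WT against 90.9 and 93.5 in cKO at 0 h and of 28.9 and 38.0 against 101 and 122 at 4 h. Kdr was named after its values were seen. Of the endothelial markers, Cdh5 was called lower in cKO at 0 h (-1.38), where Tie1 lay lower in both cKO samples (-0.58) and Vwf overlapped. At 4 h Vwf was called lower (-1.07) and Cdh5 and Tie1 overlapped. The fibroblast marker Pdgfra was called higher in cKO at 0 h, at 2.75 and 2.73 against 1.32 and 1.02 in WT, and overlapped at 4 h. Col1a1 (0.30) and Col1a2 (0.50) overlapped at 0 h without a call. At 4 h they were at 0.99 and 1.06, and at 1.33 and 1.40 as deposited, again with overlap and without a call. The part of such cells in these values was not tested. With stimulation 6 of the 7 that reached the filter at both times were higher in WT and 6 of 7 in cKO relative to the median gene, with 1 lower in each, Vegfb, which went from 815 and 649 to 70.3 and 86.1 in WT. As deposited 3 were higher in WT and 4 in cKO, again with 1 lower. Over all genes 33.5% were higher in WT and 32.7% in cKO relative to the median gene, and 11.9% and 13.7% as deposited.

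**Figure D5:**
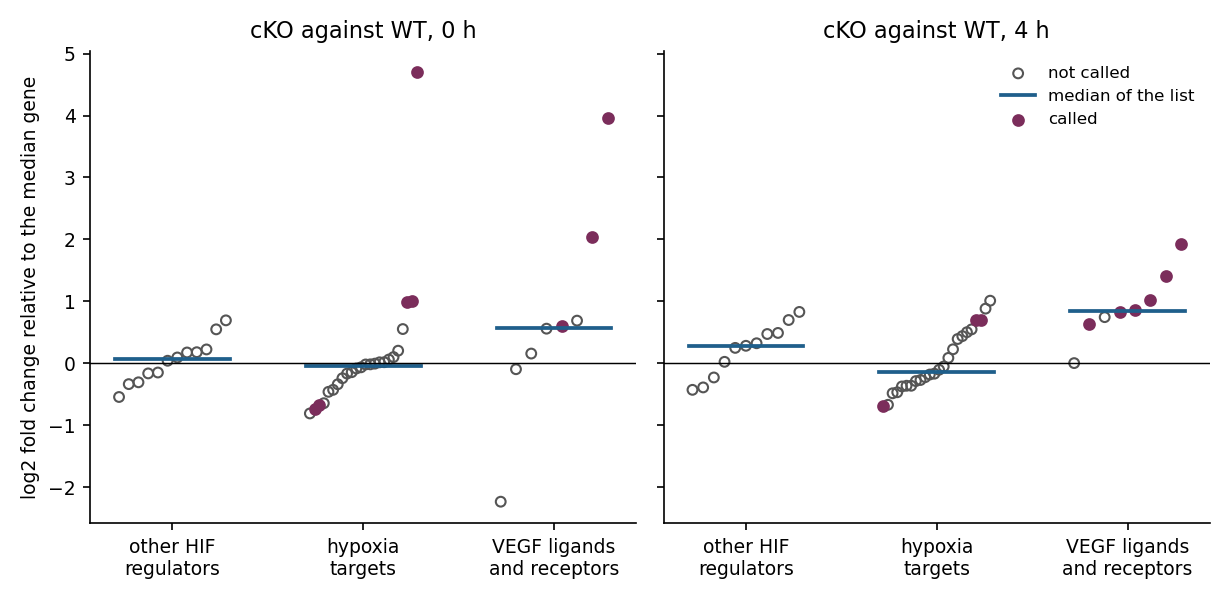
Log2 fold change of cKO against WT relative to the median gene for each tested gene of 3 lists, at 0 h (left) and 4 h (right), ordered within a list, with called genes filled and the list's median as a line. Adm and Pgf at 0 h, which passed the filter only through cKO samples, and Flt4, which passed only through WT samples, are drawn too, and with them the medians of the VEGF ligands and receptors lie at 0.58 and 0.84 and those of the hypoxia targets at -0.04 and -0.14.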

How the data were processed

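RNA-seq libraries of BMDMs (8 samples, 4 groups of 2) were aligned by the authors with HISAT2 2.2.1 to mm10 (GRCm38) and quantified with StringTie 2.1.7, and 1 signal value per gene symbol and sample was deposited, with the times in separate tables. Their headers leave the unit open, and it was read from the values as per-base coverage: 31.3% of 4329 low values were whole numbers of bases within 0.02, against 4% by chance. No scaling between samples or tables was found. Read numbers per value are unknown, and counting intervals were therefore left out. The deposited fold changes and p-values were not used, and 0 columns of per-sample values were left over.

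Values were compared as log2(coverage + 0.1), centred on each sample's median, for genes whose coverage averaged 0.5 or more over the samples in question, with limma 3.58.1 in R 4.3.3 (tested on simulated data) and Benjamini-Hochberg adjustment over all genes. A fold change is on the log2(coverage + 0.1) scale and understates the change of low genes. Each of the 4 groups entered the comparison of genotypes within a time and of times within a genotype, and the difference between times was an interaction over 8 samples. Alternatives covered scaling, pseudocount, filter, variance estimate, samples in the fit and a replicate block. A fit without 1 sample leaves 1 in its group, so the spread behind its calls comes from the other groups. Transcripts came from GENCODE M21, the protein-coding one paired with RefSeq that had the longest 3′UTR. Promoters came from RefSeq. With blastn 2.17.0, 0 of the 7 members had another gene at 95% identity over 300 bases. Named were the 7 members, Nudt21, the nearest 3 genes of each member, and from each list genes with an adjusted p under 0.05 between genotypes or the largest rise or fall. Some genes that this rule names are not reported here. Members and lists were chosen with earlier results of these data known. Each sample pools 2 mice, so p-values measure the spread between pools.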

Additional observations from a re-analysis of the deposited data

Results flagged for a closer look

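For 2 members the genotype effect differed between the times by the interaction test in limma, beside 7.47% of all genes called higher and 8.85% lower in that test. The genotype effect on Vhl was larger at 4 h than at 0 h by 0.91 on the log2 scale (adjusted p = 0.0656), and the samples of the genotypes were apart at 4 h on each scale and at 0 h only as deposited. The genotype effect on Egln1 was larger at 4 h by 0.63 (adjusted p = 0.172), going from -0.29 to 0.36, with samples that at 0 h overlapped as deposited, while those of cKO lay lower relative to the median gene, and that were apart at 4 h. Both passed the rule of a fold above 1.5 with an unadjusted p under 0.05, and neither had an adjusted p under 0.05. The call of Egln1 was lost under 5 of the 17 alternatives, 4 of them leaving out 1 sample (WT sample 1 or cKO sample 3 of 0 h, WT sample 2 or cKO sample 4 of 4 h, at 0.49 to 0.58) and the other the adjusted p.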

How the results depend on the processing

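Hif1a and Epas1 kept their direction and call with stimulation in both genotypes under all 14 alternatives, and Vhl kept its 4 h genotype call under 12 of 13, the exception being the adjusted p. On the deposited scale the members called were 3 between genotypes at 4 h, beside 20.8% of all genes called higher and 4.17% lower. For stimulation they were 6 in each genotype, beside 11.9% higher and 55.1% lower in WT and 13.7% and 53.2% in cKO. With equal summed coverage they were also 6 in each, beside 12.2% and 53.5% in WT and 13.3% and 53.9% in cKO. The stimulation value of Arnt turned to -1.28 in WT and -1.13 in cKO as deposited, -1.23 and -1.17 with equal summed coverage, -0.51 and -0.70 with quantile normalization, and -0.0625 and -0.137 when coverage had to average 5 or more. That of Vhl in WT turned to -1.11 as deposited, -1.06 with equal summed coverage and -0.13 with quantile normalization, and that of Egln1 in cKO to -0.93, -0.97 and -0.15. The difference between times turned as deposited to 0.11 for Epas1, 0.154 for Arnt and 0.0164 for Vegfa, and with equal summed coverage to 0.0203 for Epas1 and 0.0651 for Arnt.

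With no filter 2 members were called for stimulation in WT, where the share of all genes was not taken. With an adjusted p under 0.05 as the rule, the genotype comparison called 176 genes at 0 h, and at 4 h 236 genes and 0 members. The difference between times called 346 genes and 0 members, and stimulation in WT 8108 genes and 2 members. Leaving out each sample in turn gave 1 to 2 members called between genotypes at 4 h and 1777 to 3508 genes, the lowest without cKO sample 4 of 4 h, beside 3032 with all samples. It gave 2 to 3 members for stimulation in WT and 1 to 2 for the difference between times. Egln3 ranged from -0.40 to 0.16 between genotypes at 0 h, from -0.13 to 1.91 at 4 h and from -0.027 to 2.004 for the difference between times, and Epas1 from -0.345 to 0.0419 for the latter.

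Replicate numbers recur across the times within a genotype, but the deviations of same-numbered samples correlated at only 0.05 in WT and 0.06 in cKO, so the numbers were not taken as pairs. A replicate block gave 3 members called for stimulation in WT, 4 in cKO and 2 for the difference between times, as without it, and 8532, 8868 and 2552 genes. The paper gives a lower bound on the reads per sample, but the depth of each library is unknown. With 2 samples a group the spread itself is poorly known.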
